A study of Mus musculus with 6 samples.

Results

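Pigment cells make melanin inside melanosomes, organelles related to lysosomes, and 8 genes of this machinery were followed in the newborn mouse lens: Pmel, Dct, Tyr, Tyrp1, Mlana, Mitf, Gpnmb and Rab27a. All probe sets assigned to 1 of these symbols alone were taken. There were 14 such probe sets for 7 of the 8 genes, among 22626 tested probe sets and 12393 genes. Mlana, which encodes a small melanosomal membrane protein, had no such probe set and was not analysed here.

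The lenses came from newborn (P0) mice: Le-AP-2alpha mutants, a conditional mutation of Tfap2a, which encodes the transcription factor AP-2alpha, and their wild-type littermates. Total RNA was amplified and hybridised to 1 array per sample, with 3 arrays per group and 6 in all. "Le" is known from the field as the Le-Cre transgene, which carries Pax6 regulatory sequence and is active in the lens placode and the surface ectoderm around it. The labels do not say whether wild types carried the transgene, which strain or coat colour the mice had, or whether lenses were pooled. The p-values therefore cover only the variation among these 6 samples, which may be technical.

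Melanin synthesis starts when tyrosinase (Tyr) oxidises tyrosine, and its relatives Dct and Tyrp1 act on later intermediates. Pmel forms the fibrils on which melanin is laid down, Mitf is the transcription factor that directs pigment cell genes, and Rab27a is the small GTPase that tethers finished melanosomes to the actin cytoskeleton. In the eye these genes are known from the retinal pigment epithelium, the pigmented layers of iris and ciliary body, and the neural crest melanocytes of the choroid and iris stroma. The lens itself is not pigmented.

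Of 14 measured lens markers 12 lay above the median probe set, and the crystallin Cryaa was between 13.63 and 13.76 in mutants and between 13.67 and 13.81 in wild types (log2 intensity). The medians of the arrays were 5.19 to 5.32. One array, wild-type replicate 1, resembled the rest less: over all probe sets its Pearson r with them was at most 0.945, whereas every pair of the remaining arrays had an r of at least 0.974. The 3' over 5' log2 ratio of the Gapdh control probe sets was 0.75 to 1.39 in mutants and 0.73 to 1.2 in wild types. The brightest Tfap2a probe set, 9.57 to 9.83 in mutants and 8.36 to 9.56 in wild types, was not lower in mutants. Another had 7.85 to 9.22 in mutants and 6.44 to 7.87 in wild types. The last had 8.86 to 9.85 in mutants and 8.39 to 9.32 in wild types. Which part of the gene these probes match is not known here, so they check nothing about the deletion.

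The proximal promoters of the 3 melanin enzyme genes are shown because they carry the sequence through which Mitf is known to act on them, the 6-base core CATGTG of the so-called M-box. The stretches are from RefSeq (GRCm38.p6), written 5′ to 3′ on the strand of the gene, with each CATGTG or its reverse complement CACATG in capitals. Tyrp1 is shown at chr4:80834093-80834212 (+) and Tyr at chr7:87493513-87493632 (-), both for the 120 bases that end 1 base before the annotated start. Dct is shown at chr14:118052377-118052496 (-), from 250 to 131 bases before its start.
Tyrp1: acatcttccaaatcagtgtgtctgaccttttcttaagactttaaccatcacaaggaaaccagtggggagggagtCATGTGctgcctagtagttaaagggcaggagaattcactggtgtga
Tyr: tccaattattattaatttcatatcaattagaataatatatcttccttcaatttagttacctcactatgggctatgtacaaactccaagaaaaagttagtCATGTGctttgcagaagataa
Dct: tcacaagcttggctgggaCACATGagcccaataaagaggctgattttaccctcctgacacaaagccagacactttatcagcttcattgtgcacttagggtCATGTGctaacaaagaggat

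The match begins 46 bases before the start in Tyrp1, 21 bases before it in Tyr, and 232 and 150 bases before it in Dct. Each of these matches also has the longer form TCATGTG, read on the strand that carries CATGTG. Promoter windows of 300 bases, from 250 before to 50 after a start, hold CATGTG on either strand in 14.2% of 32851 cases and TCATGTG in 3.77%. Windows were given for 6 of the 8 genes, 9 windows in all. The Gpnmb window, the 3 Mitf windows and both Rab27a windows had no CATGTG on either strand; the palindrome CACGTG, found in 7.15% of all windows, occurred in 1 Rab27a window, 246 bases before the start. A match is a run of letters and says nothing of binding.

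Of the 14 probe sets, 6 were brighter than the median probe set and 8 were dimmer, here called dim. None passed the threshold: limma called 0 of them at an adjusted p under 0.05 over all 22626 probe sets, of which 0 were called (0%). At an unadjusted p under 0.05 there were 3 (Pmel, Dct and Gpnmb), against 3.28% of all probe sets. With each gene at its brightest probe set, 5 of the 7 measured genes had a higher mean in mutants and 2 a lower one, where 47.8% of all genes had a higher mean. The median log2 difference of the 7 was 0.64 (mutant minus wild type), against -0.01 over all genes. For 3 genes (Pmel, Dct and Gpnmb) every mutant array was above every wild-type array, as in 4.22% of all genes, and for 1 (Mitf) every mutant array was below, as in 4.58%. These genes are known as pigment cell markers whose behaviour on these arrays was partly known when they were listed, so the counts describe them and test nothing.

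**Figure D1:**
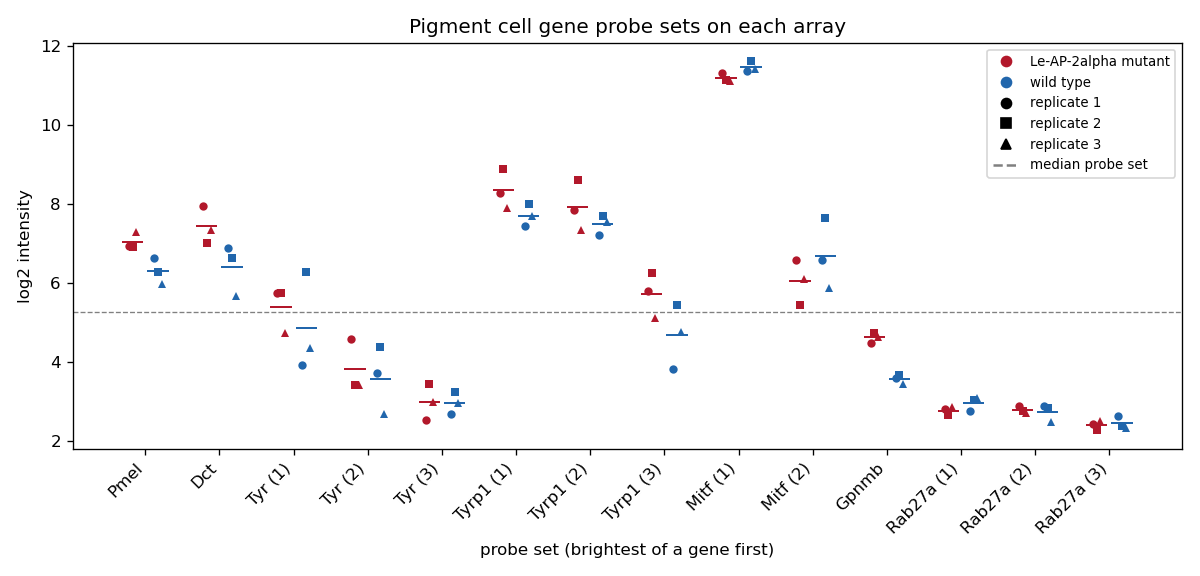
Log2 intensity of each of the 14 probe sets (x axis, brightest of a gene first) on each array, with Le-AP-2alpha mutants in red to the left of wild types in blue, symbols for replicates, and short lines at the means of 3 arrays. Pmel, Dct and Gpnmb lie higher in all mutants, Mitf (1) lies near 11 in both groups, and the 3 Rab27a probe sets lie far below the dashed line at 5.26, the level of the median probe set.

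Pmel, the fibril protein of early melanosomes, had log2 levels of 6.93, 6.91 and 7.30 in mutants, against 6.64, 6.29 and 5.99 in wild types. The groups did not overlap, with a gap of 0.26 between the lowest mutant and the highest wild type. The difference was 0.74 ± 0.24 (SE), a 1.67-fold higher mutant level, with a limma adjusted p of 0.999. Leaving out single arrays moved it between 0.58 and 0.91, with 0.91 without wild-type replicate 1.

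Dct, the dopachrome tautomerase that also marks melanoblasts and the early pigment epithelium, had 7.96, 7.03 and 7.34 in mutants, against 6.89, 6.63 and 5.67 in wild types. Mutant replicate 1 was the highest and wild-type replicate 3 the lowest, and a gap of 0.14 separated the groups. The difference of 1.05 ± 0.39 (log2, SE) had a limma adjusted p of 0.999. It was 0.79 without mutant replicate 1, 0.68 without wild-type replicate 3 and 1.29 without wild-type replicate 1.

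Tyrp1, the tyrosinase-related protein of mature melanosomes, was read by 3 probe sets. The brightest had 8.27, 8.90 and 7.90 in mutants, against 7.44, 8.0 and 7.70 in wild types. Mutant replicate 2 was the highest, and mutant replicate 3 was below wild-type replicate 2, so the groups overlapped. Its difference was 0.64 ± 0.30 (log2, SE), and those of the other Tyrp1 probe sets were 0.45 ± 0.35 and 1.05 ± 0.47, all with a limma adjusted p of 0.999. Without mutant replicate 2 the brightest was at 0.37 and the second at 0.11, and the third was at 0.62 without wild-type replicate 1. The Tyrp1 probe sets ranked mutant replicate 2 first, mutant replicate 1 second and wild-type replicate 1 last in each case, and their pairwise correlations over the 6 arrays were 0.85 to 0.96. Probe sets of 1 gene can share target sequence, so this is a likeness within 1 gene and not between genes.

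Tyr, the rate-limiting enzyme of melanin synthesis, was near or below the median probe set of 5.26. Its brightest probe set had 5.75, 5.75 and 4.74 in mutants, against 3.93, 6.29 and 4.36 in wild types. Wild-type replicate 2 held the highest value and wild-type replicate 1 the lowest, so the mutants lay inside the wild-type range. The difference of 0.56 ± 0.65 (log2, SE) was smaller than its error, at 0.09 without wild-type replicate 1 and 1.27 without wild-type replicate 2. The other Tyr probe sets, both dim, differed by 0.22 ± 0.52 and 0.02 ± 0.29, and correlated with the brightest over the 6 arrays at 0.63 and 0.43. They correlated with each other at -0.28, so the 3 Tyr probe sets gave no common order of the arrays.

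Mitf, which encodes the basic helix-loop-helix leucine zipper factor of pigment cells and is known to use several promoters in different tissues, did not have higher values in mutants. Its brightest probe set had 11.31, 11.14 and 11.11 in mutants, against 11.37, 11.61 and 11.43 in wild types. Every mutant was below every wild type, by a gap of 0.07. The difference was -0.29 ± 0.17 (log2, SE), with a limma adjusted p of 0.999, and it stayed between -0.35 and -0.22 when single arrays were left out. This probe set was brighter than 97.1% of all probe sets by its mean over all 6 arrays. The other Mitf probe set had 6.60, 5.44 and 6.11 in mutants, against 6.58, 7.64 and 5.87 in wild types. Its groups overlapped, and its difference was -0.65 ± 0.51. Which Mitf transcripts each probe set reads is not known here. Of the close relatives of Mitf, the lysosomal regulator Tfeb and the factor Tfec, which is known from macrophages and the pigment epithelium, both were dim, with differences of -0.04 and 0.41; Tfec had 3.80, 4.16 and 3.36 in mutants, against 3.14, 4.03 and 2.93 in wild types.

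Gpnmb, a transmembrane glycoprotein related to Pmel that is known from pigment cells and also from macrophages and osteoclasts, had the lowest p of the 14 probe sets. Its levels were 4.49, 4.74 and 4.65 in mutants, against 3.61, 3.69 and 3.46 in wild types. Here the gap between the groups was 0.81, wider than the range within either group. The difference was 1.05 ± 0.18 (log2, SE), a 2.06-fold higher mutant level, with a limma adjusted p of 0.885, and it lay between 0.98 and 1.11 when single arrays were left out. The probe set was dim on all arrays, brighter than 38.8% of probe sets on average, and with 16 added to each intensity before the log the difference was 0.54.

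Rab27a stayed at the lower end of the range on all arrays. Its 3 probe sets lay between 2.28 and 2.89 in mutants and between 2.35 and 3.09 in wild types, below the lower quartile of all probe sets at 3.21. Their differences were -0.18 ± 0.18, 0.04 ± 0.19 and -0.05 ± 0.18 (log2, SE), and both groups overlapped at each. At such levels these arrays cannot show whether Rab27a differed.

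**Figure D2:**
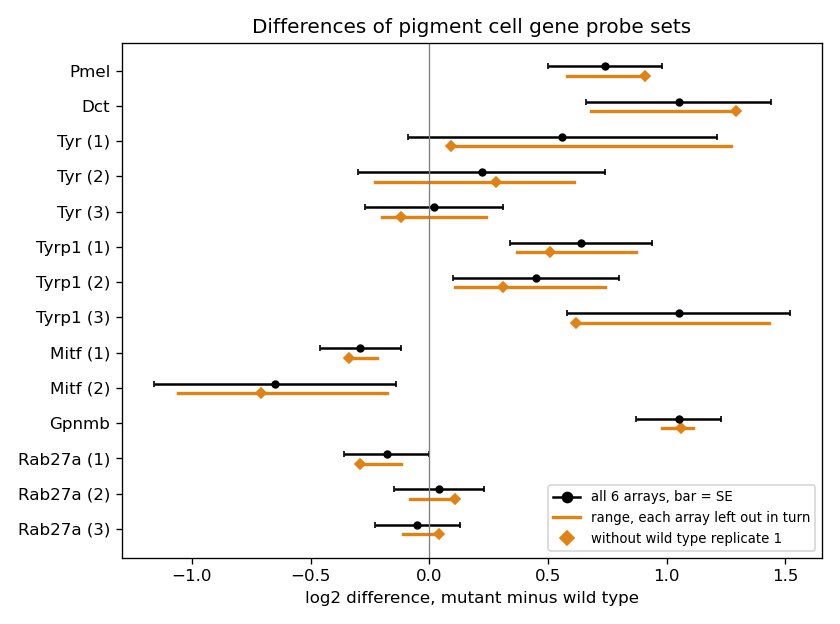
Log2 difference, mutant minus wild type, of each probe set (y axis, brightest of a gene first): black points and bars give the value and its SE with all 6 arrays, orange lines the range when each array was left out in turn, and diamonds the value without wild-type replicate 1. Pmel, Dct and the 3 Tyrp1 probe sets stayed above 0 in all of these, Gpnmb stayed between 0.98 and 1.11, and Tyr (1) ran from 0.09 to 1.27.

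The genes with higher mutant values did not share 1 order of arrays. Pmel was highest in mutant replicate 3, Dct in mutant replicate 1, Tyrp1 and Gpnmb in mutant replicate 2 and Tyr in wild-type replicate 2. Among wild types, replicate 1 had the highest Pmel and Dct but the lowest Tyr and Tyrp1. As deviations from the mean of all 6 arrays, wild-type replicate 1 was at -0.03 for both Pmel and Dct, and at -0.59 for Tyrp1 and -1.21 for Tyr (log2). Wild-type replicate 3 was the lowest array for Pmel, Dct and Gpnmb, at -0.69, -1.25 and -0.65.

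Other genes of the pigment pathway were read from a list of 35 genes of melanosome transport and biogenesis, 25 of them measured. In this list 0 genes passed, 10 had a higher and 15 a lower mean in mutants, and the median difference was -0.05. Oca2, the melanosomal anion transport protein mutated in pink-eyed dilution mice, had the lowest p, with 6.87, 6.84 and 6.79 in mutants, against 6.39, 6.05 and 5.46 in wild types. Its groups did not overlap, and its difference was 0.87 ± 0.27 (log2, SE; limma adjusted p = 0.999). Wild-type replicates 1, 2 and 3 stood in the same order for Oca2 as for Pmel and Dct, with replicate 3 lowest. Next by p came 2 subunits of the HPS complexes that build lysosome-related organelles: Hps1, dim, at -0.57, and Hps3 at 0.49. Without wild-type replicate 1 they were at -0.21 and 0.07. Slc45a2, a melanosomal transporter used as a pigment cell marker, was dim at 3.43, 2.77 and 3.53 in mutants, against 3.65, 3.01 and 3.60 in wild types.

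Markers of the cells that make pigment in the eye, and signals to those cells, were read as lists. A list of 15 genes held signals, receptors and transcription factors of the neural crest melanocyte lineage. Of these 12 were measured, 9 of them dim, with 6 higher and 6 lower in mutants and a median difference of 0.06. With dim probe sets left out 3 genes remained, Kitl, Ednrb and Tfap2b, and their median was 0.89. That median is the difference of Kitl alone, which was 0.25 without wild-type replicate 1. Sox10, the factor that defines neural crest melanocyte precursors and glia, was dim and level, with 4.09, 4.04 and 4.0 in mutants, against 4.19, 3.94 and 4.11 in wild types. The endothelin receptor Ednrb, which melanoblasts need, had 7.19, 6.17 and 6.17 in mutants, against 7.56, 7.96 and 7.06 in wild types, a difference of -1.02 (limma adjusted p = 0.999). Tfap2b, an AP-2 gene that neural crest also expresses, differed by 1.84, or by 1.08 without wild-type replicate 1, which stood at 3.95, and Erbb3 differed by 0.51 at dim levels. The summed intensity of the list was 348 to 551 in mutants and 327 to 494 in wild types. The list holds signals such as Kitl beside receptors and transcription factors, so its median and sum do not measure the amount of melanocytes.

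Of 19 markers of the retinal pigment epithelium other than melanosome genes, 13 were measured and 8 of them were dim. The median difference was 0.18, with 7 higher and 6 lower, and the median was -0.12 without mutant replicate 3, 0.07 without wild-type replicate 1 and 0.32 with dim probe sets left out. Rpe65, the visual cycle isomerase of this epithelium, was below the lower quartile of probe sets on every array, with 2.47, 2.34 and 2.69 in mutants, against 2.78, 3.05 and 2.97 in wild types. At such levels these arrays cannot show whether Rpe65 differed or whether pigment epithelium was present. Stra6, the retinol-binding protein receptor, differed by -1.15 and Serpinf1, a factor secreted by the epithelium, by -0.76, both lower in mutants and neither past the threshold; Serpinf1 was at -0.41 without wild-type replicate 1. Otx2, a factor of both pigment epithelium and neural retina, had 10.02, 9.86 and 9.54 in mutants, against 7.28, 9.17 and 9.64 in wild types, a difference of 1.11 that was 0.41 without wild-type replicate 1. Summed intensities of the list were 2004 to 2529 in mutants and 1807 to 2171 in wild types. These sums rest mostly on the brightest genes, Otx2, Rdh10 (0.43) and Serpinf1, of which Serpinf1 was lower in mutants. They therefore do not measure the amount of pigment epithelium. In such tissue samples, fewer cells of a type and less RNA per cell cannot be told apart.

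Neural retina markers had higher mutant values in 21 of 22 measured genes, with a median difference of 0.77, or 0.44 without wild-type replicate 1. Their summed intensity was 4997 to 7839 in mutants and 2345 to 4705 in wild types. Elavl3 (1.36), Gap43 (1.73) and Stmn2 (1.43), neuronal genes, had the lowest p, with limma adjusted p of 0.885, 0.999 and 0.999. By array, the list mean was highest in mutant replicate 1 (0.76) and lowest in wild-type replicate 1 (-1.03). Dct was also highest in mutant replicate 1, and Tyrp1 and Tyr were also lowest in wild-type replicate 1. Pmel and Dct were not lowest there but in wild-type replicate 3, at -0.69 and -1.25, where the neural retina mean was 0.01. The part of carried-over retina or pigmented tissue in the pigment gene values was not tested.

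Macrophage markers, relevant to Gpnmb, had higher mutant values in 19 of 23 genes, with a median difference of 0.67, or 0.24 without mutant replicate 2. Their summed intensity was 2216 to 7081 in mutants and 1995 to 3090 in wild types. Csf1r, the macrophage growth factor receptor, had 7.39, 9.49 and 7.27 in mutants, against 8.06, 6.26 and 6.93 in wild types, and Cd68 had 4.17, 5.59 and 4.61 against 3.68, 3.93 and 4.07. Gpnmb was also highest in mutant replicate 2, at 4.74, where the macrophage markers were highest, and had 4.49 and 4.65 in the other mutants. Without mutant replicate 2 its difference was 0.99. The part of macrophages in the Gpnmb values was not tested. Ptprc (1.08) and Lyz2 (0.81) were next to Cd68 among the list's lowest p. Genes of the lysosome that Mitf and its relatives are known to regulate gave a median difference of 0.10 over 11 measured genes, 7 higher and 4 lower, with Neu1 at 0.49, Sqstm1 at 0.41 and Ctsb at 0.23.

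**Figure D3:**
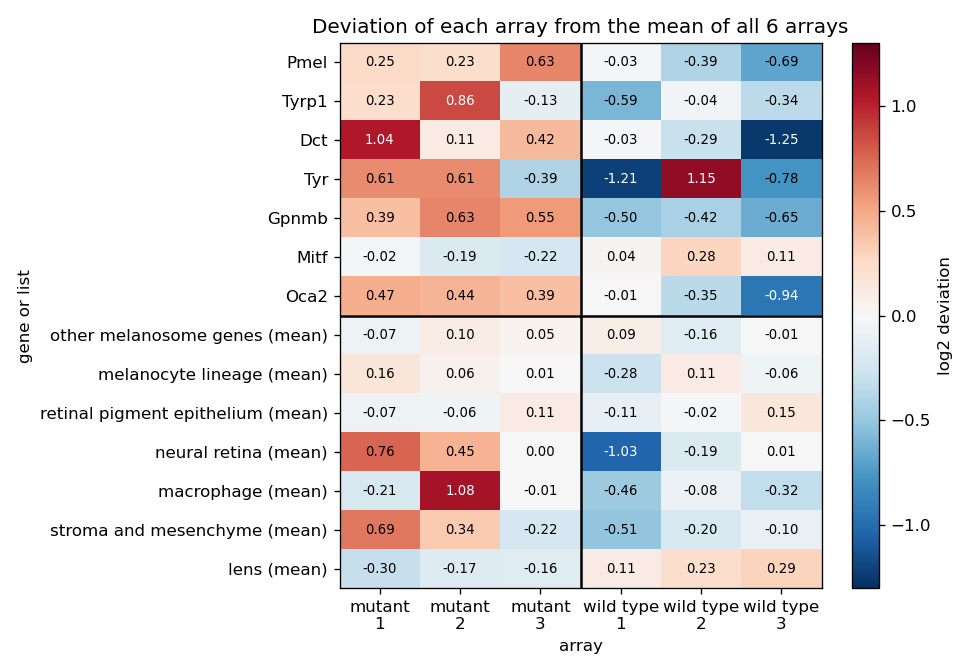
Log2 deviation of each array (columns, mutants left of wild types) from the mean of all 6 arrays, for single genes at their brightest probe set (upper rows) and for the mean over marker lists (lower rows). Pmel, Dct, Gpnmb and Oca2 are positive in all mutants and negative in all wild types, the neural retina mean is lowest in wild-type replicate 1 (-1.03), and the macrophage mean is highest in mutant replicate 2 (1.08).

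Markers of the corneal stroma and periocular mesenchyme had a median difference of 0.47, with 12 of 14 higher. It was 0.27 without mutant replicate 1 and 0.77 without mutant replicate 3. Col6a1 (1.27, limma adjusted p = 0.77), Col5a2 (0.67) and Col1a1 (1.32, or 0.83 without wild-type replicate 1) had the lowest p. Lens markers had a median difference of -0.33, with 12 of 14 lower in mutants, and their summed intensity was 66752 to 73113 in mutants and 75987 to 86140 in wild types. Cdh1 (-1.29), Dnase2b (-1.44) and Bfsp1 (-0.65) had the lowest p, all with a limma adjusted p of 0.999. A lower lens sum thus stood beside the higher Pmel, Dct and Gpnmb values on each mutant array, and its part in those values was not tested.

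The genes most like the pigment pattern were sought among 6863 other genes above the median level. The pattern was the mean deviation of Pmel, Dct, Tyr and Tyrp1 on each array. It was at 0.53, 0.46 and 0.13 in mutants and -0.47, 0.11 and -0.76 in wild types. The dim Tyr probe set weighed heavily in this mean. In wild-type replicate 2 Tyr was at 1.15, against -0.39 for Pmel, -0.29 for Dct and -0.04 for Tyrp1. These genes did not share 1 order of arrays, so the mean is not the pattern of each of them. Efhd1, a calcium-binding mitochondrial protein, was closest (Pearson r = 0.976 and Spearman rho = 1 over 6 arrays), with 7.64, 7.19 and 6.94 in mutants, against 6.36, 6.89 and 6.04 in wild types. Tor1aip2, Sgk3, Tmem50b, Ube2e1, Utp11, Ppig and Raver1 followed with r of 0.925 to 0.961. None of these 8 is a melanosome gene of the lists, and each had a limma adjusted p of 0.999. The genes share the same 6 arrays, groups and normalisation. A search of 6863 genes over only 6 arrays can also give r this high for unrelated genes. The likenesses are given only as a description of these arrays.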

How the data were processed

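The authors deposited 1 column of linear intensity values per array, and 0 columns were left out. Per the submitters' processing notes these came from RMA. RMA usually gives log2 values, and which step followed it to give linear ones is not stated. The version and settings of RMA and the genome build are not given in the sources used. The number of arrays limits the precision, and the normalisation that RMA includes can shrink differences at low signal. The log2 of each intensity was taken, 64 array controls were left out, and probe sets were named by the 2016 platform annotation: 20380 had 1 symbol, 691 several and 1555 none; 20351 matched a RefSeq table (GRCm38.p6) by Entrez ID, with 0 symbols changed. The highest share of equal values between arrays was 0.186%. "Dim" means a mean level below that of the median probe set; a gene is given by its brightest probe set.

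Probe sets were fitted with limma 3.58.1 in R 4.3.3 (lmFit, eBayes, no covariate, two-sided, Benjamini-Hochberg over 22626 probe sets, threshold 0.05), tested on simulated data. Differences are mutant minus wild type with the SE of the fit. The members, the 12 lists (191 entries, 157 measured) and the alternatives were chosen with earlier results of these data known. Named genes were all member probe sets, the 3 of lowest p per list, some fixed markers (Sox10, Rpe65, Otx2, Csf1r, Cd68, Tfec, Slc45a2) and the 8 genes nearest to the pigment pattern. Alternatives were a replicate block, other normalisations, array weights, a trended prior, leaving out dim probe sets, a pseudocount of 16, arrays left out, a threshold of 0.1, a minimum fold of 1.5 and averaging the probe sets of each gene.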

Additional observations from a re-analysis of the deposited data

How the results depend on the processing

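Under every alternative run, 0 pigment cell gene probe sets (or genes, with probe sets averaged) passed the threshold; the lowest adjusted p was that of Gpnmb, 0.0759 with array weights. Array weights, which rested on wild-type replicate 3 (weight 5.65, against 0.224 and 0.569 for replicates 1 and 2), called 7 probe sets of the whole array, against 0 otherwise, and gave a median difference over the pigment cell genes of 0.91, against 0.64. That median was 0.39 to 0.87 when single arrays were left out, and 0.24 without wild-type replicate 1 and mutant replicate 2 together. With dim probe sets left out, 3 genes were higher in mutants, against 5, since only 4 genes remain. The number of genes whose groups did not overlap was 3 to 6 over all alternatives, against 4. It reached 5 or 6 only with arrays left out. Groups of fewer arrays stand apart more easily, and the share over all genes in those fits is not given here. A difference within its own SE of 0 was given no direction, and by that rule no probe set reversed. Signs did change within that limit. Without wild-type replicate 1 and mutant replicate 2, 1 dim Tyr probe set was at -0.34, against 0.02 ± 0.29. In that setting the brightest Tyr probe set was at -0.08 and 1 Tyrp1 probe set at -0.03, and 4 genes were higher in mutants. Another Tyr probe set was at -0.23 without wild-type replicate 3, and the dimmer Mitf probe set at 0.01 with array weights. Signs of some Rab27a probe sets also changed. The labels do not say whether the replicate numbers pair the samples. Deviations of same-numbered arrays from their group means correlated at -0.07, -0.26 and -0.16, but 3 arrays per group are too few to settle a pairing. With the replicate number as a block the median difference was 0.64 and 0 probe sets passed, with 522 at an unadjusted p under 0.05, against 742. Levels near the lower end of the range, as for Rab27a and the dimmer Tyr probe sets, limit what can be read there.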

Other observations

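Of 6 red blood cell markers 4 were measured, all dim on average, and 2 of them, Alas2 and Slc4a1, were highest in mutant replicate 1, as Dct was, and next in wild-type replicate 1. Alas2, the enzyme that starts haem synthesis in red cells, had 7.67, 3.24 and 5.92 in mutants, against 6.99, 3.63 and 2.76 in wild types, and Slc4a1, the red cell anion exchanger, had 6.90, 2.88 and 4.60, against 5.67, 3.30 and 2.91. Epb42 (-0.19) and the globin gene Hba-a1 (-0.17) were dim on every array and had their lowest level in mutant replicate 1. Their probe sets were brighter than only 17.1% and 9.58% of all probe sets, so the order of arrays cannot be read there. The listed globin gene Hbb-bt had no probe set with that symbol alone. These values therefore do not measure globin RNA as a whole. The list's median difference was 0.33, at -0.12 without mutant replicate 1, 0.02 without wild-type replicate 3 and 0.86 without wild-type replicate 1. Blood vessel endothelium markers had a median difference of -0.19 over 10 genes, 4 higher and 6 lower, with Pecam1 at -0.49, Cldn5 at -0.58 and Esam at 0.41.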
